A study of Mus musculus with 15 samples.

Results

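MHC class I antigen presentation was followed through 10 genes in mouse bone marrow-derived macrophages (BMDMs): the heavy chains H2-K1 and H2-D1, the light chain B2m, the peptide transporter subunits Tap1 and Tap2, the immunoproteasome subunits Psmb8 and Psmb9, the proteasome activator subunits Psme1 and Psme2, and the class I transactivator Nlrc5. The genes were chosen by name and function from a table of 55385 genes. All 10 passed the filter on low counts, as did 13005 genes in all. BMDMs came from BALB/c mice aged 6 weeks that carried floxed Stat5 alleles, either without Cre (STAT5fl/fl, 2 mice, numbered 112 and 113) or with the Csf1r-iCre transgene (STAT5cKO, 3 mice, numbered 114, 115 and 116). The Csf1r promoter drives Cre in the myeloid compartment and is not restricted to macrophages. Cells of each mouse were kept for 2 h in serum-free DMEM, in DMEM with 20 ng/mL rmGM-CSF (recombinant mouse GM-CSF, the cytokine that signals through STAT5) or in medium conditioned by 4T1 cells, a BALB/c mammary tumor line (4T1 CM). This gave 15 libraries in 6 groups of genotype and treatment, and the comparisons ask whether loss of STAT5 alters macrophage expression at rest or after either stimulus.

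Class I molecules display peptides from the cell interior to CD8 T cells. Peptides are cut by the proteasome, in which Psmb8 and Psmb9 can replace the constitutive catalytic subunits Psmb5 and Psmb6, and the PA28 ring of Psme1 and Psme2 opens access to its chamber. Tap1 and Tap2 form the pump that carries peptides into the endoplasmic reticulum, where they are loaded onto a heavy chain paired with B2m. Nlrc5 is the transcriptional activator of most of these genes, and interferons are their best known inducers.

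The promoters of the members were read from RefSeq (build GRCm38.p6) as the 250 bases before the transcription start. A window was found for 8 of the 10 members, Nlrc5 and Tap2 being the others. Windows of 4 genes are shown, each 5′ to 3′ on the strand of the gene, because they stand for the pump, the light chain, a heavy chain and the activator, and because they range from an ISRE match to no match at all. These are Tap1 (chr17:34187306-34187555, plus strand), B2m (chr2:122147437-122147686, plus strand), H2-K1 (the second of its start sites, chr17:34000334-34000583, minus strand) and Psme2 (the first of its start sites, chr14:55591102-55591351, minus strand). Capitals mark matches on either strand to the CCAAT box (CCAAT) or to the core of the interferon-stimulated response element (ISRE, GAAA, any 2 bases, GAAA).
Tap1: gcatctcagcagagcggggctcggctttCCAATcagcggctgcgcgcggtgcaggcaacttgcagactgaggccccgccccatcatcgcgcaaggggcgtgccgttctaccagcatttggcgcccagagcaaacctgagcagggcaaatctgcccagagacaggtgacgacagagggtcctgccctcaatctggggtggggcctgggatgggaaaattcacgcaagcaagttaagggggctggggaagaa
B2m: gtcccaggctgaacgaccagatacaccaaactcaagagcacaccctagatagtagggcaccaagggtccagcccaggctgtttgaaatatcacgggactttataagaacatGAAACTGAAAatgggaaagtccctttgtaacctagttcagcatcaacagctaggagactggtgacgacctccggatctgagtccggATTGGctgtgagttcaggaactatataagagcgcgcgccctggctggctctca
H2-K1: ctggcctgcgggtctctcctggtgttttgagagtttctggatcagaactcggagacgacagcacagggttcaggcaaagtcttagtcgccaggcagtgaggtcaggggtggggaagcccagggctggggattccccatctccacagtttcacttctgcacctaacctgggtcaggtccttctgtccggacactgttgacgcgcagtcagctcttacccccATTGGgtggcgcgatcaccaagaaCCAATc
Psme2: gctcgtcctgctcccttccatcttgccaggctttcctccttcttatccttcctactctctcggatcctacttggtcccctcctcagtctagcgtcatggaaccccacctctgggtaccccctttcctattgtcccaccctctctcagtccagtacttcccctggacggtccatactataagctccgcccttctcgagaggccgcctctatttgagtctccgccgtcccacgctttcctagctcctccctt
The ISRE core matched in B2m, from position -139 to -130, where -1 is the base before the start, and in no other member window. A CCAAT box matched in the windows of H2-K1, H2-D1, B2m, Tap1 and Psmb9. The matches of Tap1 and Psmb9 are the same bases, read on opposite strands of overlapping windows. The GAS element (TTCNNNGAA), a short site named for interferon-gamma activation, matched only in Psmb8, at -97 to -89, as TTCCCAGAA. None of the 3 motifs matched in Psme1 or Psme2. Over all 32851 promoter windows of the table, 7.02% held the GAS letters, 2.98% the ISRE core and 33.9% a CCAAT box. Motif matches are letters in a window and were not tested against expression.

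Of the members, 6 lie on chromosome 17 in the major histocompatibility complex. Tap1 (chr17:34187553-34197225, plus strand) and Psmb9 (chr17:34181987-34187764, minus strand) are transcribed away from each other, with gene starts 211 bases apart in the coordinates of the count table, and their RefSeq windows share 275 bases when the 50 bases after each start are included. Their annotated exons overlap by 212 bases on opposite strands. Psmb8 (chr17:34197721-34201454) and Tap2 (chr17:34203527-34216321) follow Tap1 on the plus strand. H2-K1 (chr17:33996017-34000347) is on the minus strand and H2-D1 (chr17:35262730-35267499) on the plus strand. Psme1 (chr14:55578123-55581529, plus strand) and Psme2 (chr14:55587441-55591113, minus strand) are neighbors on chromosome 14, B2m lies at chr2:122147686-122153083 and Nlrc5 at chr8:94434356-94527272.

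Libraries held 16016736 to 22883108 counts, and the members between 445 and 43367 counts per library. In STAT5cKO BMDMs Stat5a and Stat5b had at most 3 and 4 counts per library, while in STAT5fl/fl BMDMs they had at least 637 and 977. The summed level of 6 macrophage markers, all detected, was 6604 to 8213 CPM (counts scaled to a common library total with RLE factors), with 7157 to 8213 CPM in 4T1 CM and 6604 to 7104 CPM in DMEM. All 4 NK cell markers were at 0 in every library, and the summed markers stayed at or below 2.80 CPM for T cells, 0.827 for B cells, 2.36 for neutrophils and their precursors, 4.11 for dendritic cells and 0.236 for epithelial cells. Dendritic cell markers summed to 2.14 to 4.11 CPM with rmGM-CSF and to at most 1.80 CPM otherwise. The 4 fibroblast markers summed to 0.637 to 1.70 CPM in STAT5fl/fl and 1.91 to 5.20 CPM in STAT5cKO libraries, and the part of these marker differences in the results was not tested. In bulk RNA a change in the cells present and a change in RNA per cell cannot be told apart. The level per kb of summed exon length, as a mean over each group, ran from 1489.8 to 1923 CPM per kb for B2m, 467 to 636 for H2-D1 and 96.0 to 137 for H2-K1. It was 29.7 to 53.4 for Psme2, 40.0 to 49.8 for Psme1, 26.3 to 35.2 for Psmb8, 14.6 to 23.4 for Tap2, 7.34 to 16.3 for Tap1, 6.24 to 10.6 for Psmb9 and 4.52 to 10.7 for Nlrc5. The ranges of B2m, H2-D1 and H2-K1 lay apart from each other and above all others, and that of Psmb8 lay above that of Tap2. Those of Psme2 and Psme1, of Psme2 and Psmb8, of Tap2 and Tap1, and of Tap1, Psmb9 and Nlrc5 overlapped. This order depends on the summed exon lengths, and in plain CPM the ranges of the group means of B2m and H2-D1 overlapped.

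**Figure D1:**
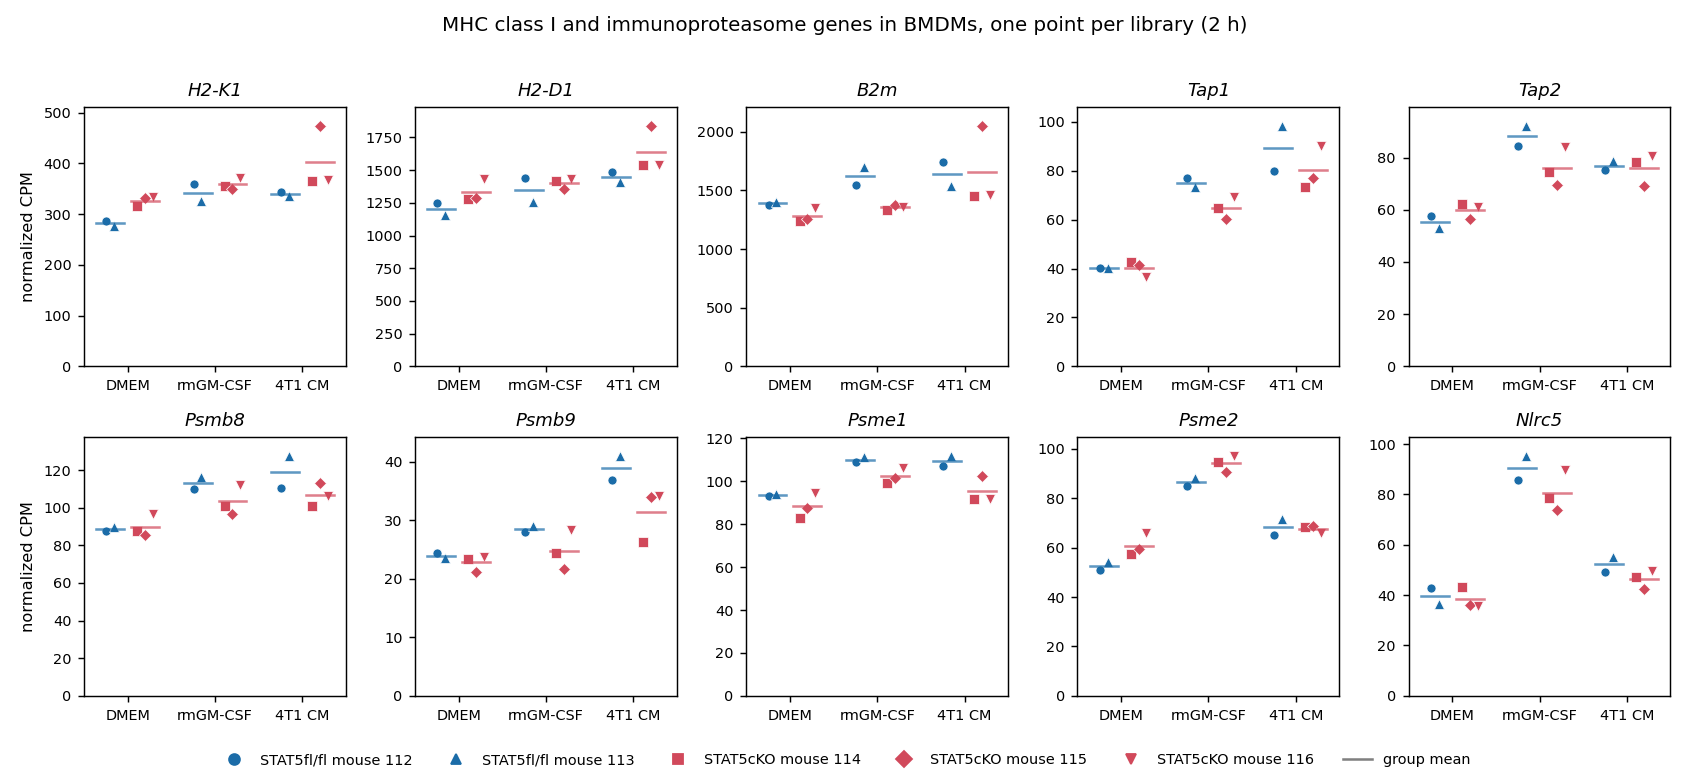
Normalized CPM (y axis, linear from 0) of each member in every library, by treatment (x axis), with blue for STAT5fl/fl, red for STAT5cKO, a symbol for each mouse and a line at the group mean. Tap1, Nlrc5 and Psme2 rose with both stimuli or with 1 of them in both genotypes, and STAT5cKO mouse 115 lies highest for H2-K1, H2-D1 and B2m in 4T1 CM, at 473, 1835 and 2047 CPM.

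The transporter subunit Tap1 rose with both stimuli in both genotypes. In DMEM its level was 40.2 CPM in both STAT5fl/fl libraries and 42.8, 41.4 and 36.7 CPM in the STAT5cKO libraries of mice 114, 115 and 116. With rmGM-CSF it was 77.1 and 73.2 CPM in STAT5fl/fl and 64.9, 60.1 and 69.4 CPM in STAT5cKO libraries. In 4T1 CM Tap1 stood at 80.0 and 98.2 CPM in STAT5fl/fl and 73.5, 76.9 and 90.3 CPM in STAT5cKO libraries. Every stimulated library was above every DMEM library. Separation from DMEM within a genotype, in either direction, was common over all genes. With rmGM-CSF it held for 71.7% of genes in STAT5fl/fl and 48.2% in STAT5cKO BMDMs, and with 4T1 CM for 74.2% and 54.5%. The log2 fold change against DMEM (edgeR quasi-likelihood F test, ± standard error) was 0.90 ± 0.11 with rmGM-CSF in STAT5fl/fl (adjusted p = 5.58e-06) and 0.69 ± 0.092 in STAT5cKO BMDMs (adjusted p = 1.67e-05). For 4T1 CM it was 1.15 ± 0.11 (adjusted p = 1.71e-07) and 0.995 ± 0.091 (adjusted p = 6.85e-08), a rise of 2.21-fold and 1.99-fold. A difference was called at an adjusted p under 0.01.

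Tap2, the partner subunit of the pump, was higher with rmGM-CSF at 84.6 and 92.1 CPM in STAT5fl/fl libraries, against 57.5 and 53.2 CPM in DMEM. In STAT5cKO libraries it was 62.3, 56.6 and 61.1 CPM in DMEM and 74.7, 69.5 and 84.0 CPM with rmGM-CSF. The groups did not overlap in either genotype, as for 71.7% and 48.2% of all genes. Tap2 rose by 0.68 ± 0.093 (adjusted p = 1.80e-05) and 0.34 ± 0.076 (adjusted p = 0.0022) on the log2 scale. With 4T1 CM its levels were 75.1 and 78.6 CPM in STAT5fl/fl and 78.2, 69.1 and 80.5 CPM in STAT5cKO libraries. These rises were 0.47 ± 0.093 (adjusted p = 0.000436) and 0.34 ± 0.076 (adjusted p = 0.00122). Without mouse 113 the STAT5fl/fl differences were 0.56 with rmGM-CSF and 0.39 with 4T1 CM, and Tap2 was no longer called there. In STAT5cKO BMDMs both calls were lost without mouse 114, at 0.38 and 0.35 (adjusted p = 0.0116 and 0.011). Without mouse 116 the STAT5cKO difference with rmGM-CSF was 0.28 and was not called (adjusted p = 0.0263).

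Nlrc5, the transactivator of class I genes, had the largest rmGM-CSF difference of the 10 members in both genotypes. In DMEM it was at 42.8 and 36.4 CPM in STAT5fl/fl and 43.1, 36.2 and 35.7 CPM in STAT5cKO libraries. With rmGM-CSF it was at 85.7 and 95.3 CPM in STAT5fl/fl and 78.6, 74.0 and 89.5 CPM in STAT5cKO libraries, all above the DMEM libraries. It rose by 1.19 ± 0.11 on the log2 scale in STAT5fl/fl (2.29-fold, adjusted p = 2.44e-07) and by 1.07 ± 0.094 in STAT5cKO BMDMs (2.1-fold, adjusted p = 9.70e-08). With 4T1 CM its levels were lower, at 49.2 and 55.2 CPM in STAT5fl/fl and 47.1, 42.6 and 49.4 CPM in STAT5cKO libraries. Its log2 fold change against DMEM was then 0.40 ± 0.12 in STAT5fl/fl (adjusted p = 0.00868) and 0.28 ± 0.095 in STAT5cKO BMDMs, which was not called (adjusted p = 0.0234). The STAT5fl/fl call was lost without mouse 113 (0.20, adjusted p = 0.374). Against rmGM-CSF, 4T1 CM gave lower Nlrc5 in both genotypes, with log2 fold changes of -0.80 ± 0.11 (adjusted p = 2.37e-05) and -0.80 ± 0.093 (adjusted p = 2.04e-06).

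Psme2, a subunit of the PA28 activator, followed a like order of treatments. Its levels were 50.8 and 54.0 CPM in STAT5fl/fl and 57.4, 59.3 and 65.8 CPM in STAT5cKO libraries in DMEM, and 85.0 and 88.2 CPM against 94.8, 90.6 and 97.2 CPM with rmGM-CSF. With 4T1 CM they were 65.1 and 71.8 CPM in STAT5fl/fl and 68.2, 69.0 and 65.8 CPM in STAT5cKO libraries. The rmGM-CSF libraries were the highest in each genotype. Psme2 rose with rmGM-CSF by 0.72 ± 0.077 (adjusted p = 8.62e-07) and 0.63 ± 0.062 (adjusted p = 4.22e-07) on the log2 scale. In 4T1 CM Psme2 rose by 0.38 ± 0.077 in STAT5fl/fl (adjusted p = 0.000504, lost without mouse 113 at 0.0235), while in STAT5cKO BMDMs the value was 0.15 ± 0.062 (adjusted p = 0.051). It was lower with 4T1 CM than with rmGM-CSF in both genotypes (-0.34 ± 0.076, adjusted p = 0.00167, and -0.48 ± 0.062, adjusted p = 6.72e-06). The STAT5fl/fl call was lost without mouse 112 (adjusted p = 0.047) and without mouse 113 (adjusted p = 0.0215). Its partner Psme1 ranged only from 82.8 to 112 CPM over the 15 libraries, and its differences from DMEM lay between 0.11 and 0.24 on the log2 scale and were not called. The Psme1 difference with rmGM-CSF in STAT5cKO BMDMs was 0.21 (adjusted p = 0.0114). It was called with DESeq2, the likelihood ratio test, voom and the mouse as a block (adjusted p = 0.00746 to 0.00845). In STAT5fl/fl BMDMs that difference (adjusted p = 0.0171) was called when only the groups compared were fitted (adjusted p = 0.00808). The ratio of Psme2 to Psme1 per kb was 0.702 ± 0.025 (SD, n = 2 mice) in STAT5fl/fl and 0.862 ± 0.014 (SD, n = 3 mice) in STAT5cKO BMDMs in DMEM. With rmGM-CSF it was 0.985 ± 0.0092 and 1.15 ± 0.041. The size of this ratio depends on the summed exon lengths, and in plain CPM the mean of Psme2 was below that of Psme1 in every group. Of the 50-base words of Psme2, 28.3% also occur in its copy Psme2b, and reads that fit both equally well would mostly fall below the mapping quality that was required.

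The immunoproteasome subunit Psmb9, the divergent neighbor of Tap1, rose with 4T1 CM and was not called with rmGM-CSF. It was at 24.4 and 23.6 CPM in STAT5fl/fl and 23.4, 21.2 and 23.8 CPM in STAT5cKO libraries in DMEM. With rmGM-CSF its levels were 28.0 and 29.1 CPM in STAT5fl/fl and 24.4, 21.8 and 28.4 CPM in STAT5cKO libraries, and the log2 differences of 0.25 ± 0.13 and 0.11 ± 0.11 were not called (adjusted p = 0.142 and 0.451). In 4T1 CM Psmb9 stood at 36.9 and 41.1 CPM in STAT5fl/fl and 26.2, 34.1 and 34.2 CPM in STAT5cKO libraries, above the DMEM libraries of the same genotype in each case. These rises were 0.70 ± 0.13 (1.62-fold, adjusted p = 0.000201) and 0.47 ± 0.10 (1.38-fold, adjusted p = 0.00131), and they were lost without mouse 113 (adjusted p = 0.0329) and without mouse 115 (adjusted p = 0.0256). The Tap1 and Psmb9 responses were not tested against each other.

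Psmb8, the other immunoproteasome subunit, was at 87.8 and 90.0 CPM in STAT5fl/fl and 87.6, 85.4 and 96.7 CPM in STAT5cKO libraries in DMEM. With rmGM-CSF it was at 109.9 and 116 CPM in STAT5fl/fl and 101, 96.9 and 112 CPM in STAT5cKO libraries. In 4T1 CM Psmb8 stood at 110.5 and 128 CPM in STAT5fl/fl and 101, 113 and 106 CPM in STAT5cKO libraries. In each genotype both stimuli gave values above DMEM. It rose by 0.35 ± 0.088 (rmGM-CSF, adjusted p = 0.00433) and 0.42 ± 0.088 (4T1 CM, adjusted p = 0.000715) in STAT5fl/fl BMDMs. In STAT5cKO BMDMs it rose by 0.25 ± 0.071 with 4T1 CM (adjusted p = 0.00826), and the rmGM-CSF value of 0.20 ± 0.072 was not called (adjusted p = 0.0408). All 3 calls were lost without a mouse of the same genotype (adjusted p = 0.0281 to 0.131). The level of Psmb8 per kb was 1.13 to 1.4 times that of Psmb5, the constitutive subunit it replaces, as group means, whereas Psmb9 stood at 0.0675 to 0.118 times Psmb6. Psmb10, the third immunoproteasome subunit and not a member, was at 1.79 to 2.46 times Psmb7. These ratios depend on the summed exon length of each gene, which is not a transcript length, so they do not give the relative abundance of the subunits. In plain CPM the STAT5fl/fl DMEM means were 88.9 for Psmb8 against 18.99 for Psmb5, and 52.3 for Psmb10 against 54.4 for Psmb7. Psmb9 lay below Psmb6 on either scale.

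The class I heavy chains and B2m were the most abundant members and had small differences between treatments. H2-K1 was at 286 and 278 CPM in STAT5fl/fl and 316, 331 and 334 CPM in STAT5cKO libraries in DMEM, and at 359 and 326 CPM against 356, 349.9 and 371 CPM with rmGM-CSF. In 4T1 CM H2-K1 stood at 344 and 337 CPM in STAT5fl/fl and 365, 473 and 367 CPM in STAT5cKO libraries. H2-D1 was at 1251 and 1157 CPM in STAT5fl/fl and 1276, 1288 and 1432 CPM in STAT5cKO libraries in DMEM. With rmGM-CSF H2-D1 was at 1439.8 and 1255 CPM in STAT5fl/fl and 1418, 1358 and 1429.6 CPM in STAT5cKO libraries, and B2m at 1547 and 1703 CPM against 1331, 1379 and 1359.5 CPM. The 3 genes were not called with rmGM-CSF in either genotype, with log2 differences from 0.074 to 0.28. H2-K1 in STAT5fl/fl BMDMs (0.28, adjusted p = 0.03) was called when only the groups compared were fitted (adjusted p = 0.00336) and without mouse 115 (adjusted p = 0.00439).

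With 4T1 CM, H2-D1 was at 1489 and 1412 CPM in STAT5fl/fl and 1539, 1835 and 1543 CPM in STAT5cKO libraries. B2m was at 1377 and 1403 CPM in STAT5fl/fl and 1237, 1254 and 1353 CPM in STAT5cKO libraries in DMEM, and at 1744 and 1536 CPM against 1456, 2047 and 1459 CPM with 4T1 CM. In STAT5cKO BMDMs the 3 genes rose with 4T1 CM, H2-K1 by 0.30 ± 0.079 (adjusted p = 0.0048), H2-D1 by 0.30 ± 0.077 (adjusted p = 0.00367) and B2m by 0.37 ± 0.10 (adjusted p = 0.00623). In STAT5fl/fl BMDMs the values were 0.27 ± 0.097, 0.27 ± 0.094 and 0.24 ± 0.12 and were not called (adjusted p = 0.0255 to 0.125). There H2-K1 was called when only the groups compared were fitted (adjusted p = 0.00998) and without mouse 115 (adjusted p = 0.00396), and H2-D1 without the low-count filter (adjusted p = 0.00947). The responses of the 3 genes to 4T1 CM differed between the genotypes by 0.025, 0.031 and 0.13 on the log2 scale, and none of these interactions was called (adjusted p = 0.794 to 0.965). Mouse 115 in 4T1 CM was the highest of the STAT5cKO libraries for all 3 genes and also for the summed macrophage markers, at 8213 CPM against 7355 and 7157 CPM. Without mouse 115 the 3 differences were 0.17, 0.19 and 0.17 for H2-K1, H2-D1 and B2m, and none was called (adjusted p = 0.0561 to 0.110). The 3 calls were also lost without mouse 114 (adjusted p = 0.0101 to 0.0177), although the differences were then larger, at 0.34, 0.31 and 0.43. None of the 3 was called when only the groups compared were fitted (adjusted p = 0.0199 to 0.0358). Without mouse 112 or 113, H2-K1 was at 0.30 and 0.29 and B2m at 0.37 and 0.36, and neither was called. BALB/c mice carry the H2d haplotype and the reads were aligned to the C57BL/6J reference, which carries H2b, so reads of these polymorphic genes that differ from the reference may have been lost or assigned to related genes. Of the 50-base words of H2-K1 and H2-D1, 9.63% and 12.8% occur in other annotated genes, led by H2-Q10 and H2-Q1.

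Counted over the members, rmGM-CSF against DMEM gave 5 of 10 higher and 0 lower in STAT5fl/fl BMDMs (Nlrc5, Tap1, Psme2, Tap2 and Psmb8), where 28.5% of the 13005 genes were called in either direction 15.9% as higher and 12.6% as lower. In STAT5cKO BMDMs 4 of 10 were higher and 0 lower (Nlrc5, Tap1, Psme2 and Tap2), with 23.5% of all genes called, 13.3% as higher and 10.2% as lower. The median log2 fold change of the members was 0.31 and 0.21, and that of all genes was -0.0062 and -0.0035. In single mice, 20 of 20 differences from DMEM were above 0 in STAT5fl/fl and 29 of 30 in STAT5cKO BMDMs. These counts pool 10 members over 2 or 3 mice and the members share libraries, so they are not separate observations. The share above 0 over all genes was not counted. Without STAT5fl/fl mouse 113 the STAT5fl/fl count was 3, and the mouse taken as a block gave 5 of 10 in each genotype, with Psme1 (adjusted p = 0.00796) joining the STAT5cKO genes.

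With 4T1 CM against DMEM, 6 of 10 members were higher in STAT5fl/fl BMDMs (Tap1, Psmb9, Tap2, Psmb8, Nlrc5 and Psme2) and 7 of 10 in STAT5cKO BMDMs (Tap1, Psmb9, B2m, Tap2, H2-D1, H2-K1 and Psmb8), with 0 lower in both. Over all genes 37.4% and 37.6% were called, 19.2% and 19.3% as higher and 18.2% and 18.4% as lower. The median member differed by 0.39 and 0.30 on the log2 scale and the median of all genes by 0.015 and 0.013. In single mice 20 of 20 and 29 of 30 differences were above 0. Here too the members share libraries, and these counts are not separate observations. The STAT5fl/fl count was 1 without mouse 113. The STAT5cKO count was 2 without mouse 114, 2 without mouse 115, 4 without either STAT5fl/fl mouse and 3 when only the libraries of the groups compared were fitted, and Tap1 was called in each of these fits.

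Between the stimuli, 4T1 CM gave higher Psmb9 than rmGM-CSF in STAT5fl/fl BMDMs (0.45 ± 0.13, adjusted p = 0.00915) and higher Tap1 in STAT5cKO BMDMs (0.31 ± 0.089, adjusted p = 0.00858), while Psme2 and Nlrc5 were lower in both genotypes. In STAT5cKO BMDMs Psmb9 was at 0.35 ± 0.11 (adjusted p = 0.0116), and it was called there with the mouse as a block (adjusted p = 0.00556), with DESeq2, the likelihood ratio test and voom, and without the low-count filter (adjusted p = 0.00638 to 0.0086). These 3 of 10 members in each genotype stood against 30.5% and 34.1% of all genes called (13.8% and 16.6% as higher, 16.7% and 17.5% as lower). Without either STAT5fl/fl mouse the STAT5fl/fl count was 1, and the Tap1 call in STAT5cKO BMDMs was lost without any 1 of the 5 mice (adjusted p = 0.0102 to 0.0594). The comparisons of treatments within a genotype share libraries, so their values are not independent of each other.

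**Figure D2:**
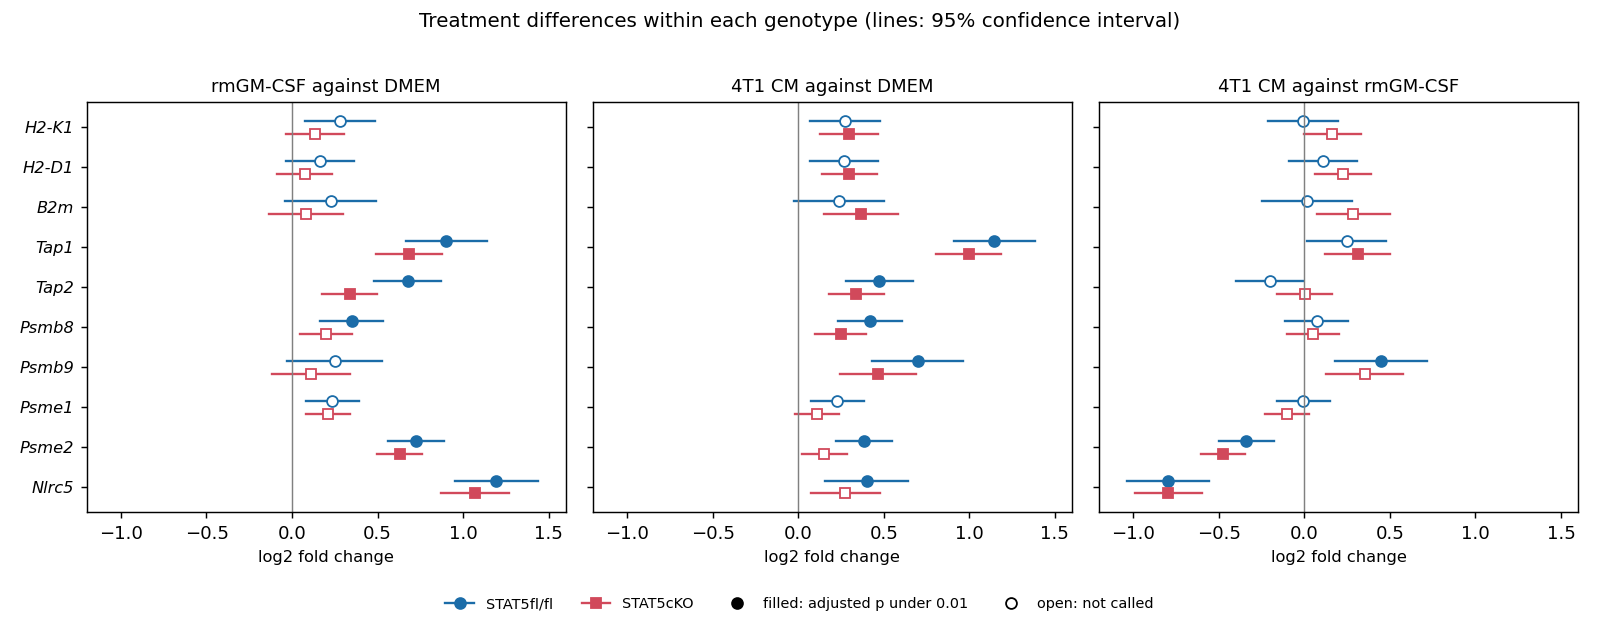
Log2 fold change (x axis) of the 10 members (y axis) between treatments, in STAT5fl/fl (blue circles) and STAT5cKO BMDMs (red squares), with lines for the 95% confidence interval and filled symbols for an adjusted p under 0.01. All 10 members lie above 0 against DMEM in both genotypes, and Nlrc5 and Psme2 lie below 0 in 4T1 CM against rmGM-CSF.

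The comparison of STAT5cKO with STAT5fl/fl BMDMs addressed the effect of STAT5 loss. None of the 10 members was called in DMEM, with rmGM-CSF or with 4T1 CM by the edgeR quasi-likelihood F test, where 2.49%, 9.8% and 7.7% of all genes were called. Of all genes 0.938%, 3.57% and 4.13% were higher and 1.55%, 6.24% and 3.57% lower in STAT5cKO BMDMs. At an unadjusted p under 0.05 the counts were 2, 3 and 3 of 10, and the share of all genes at that looser threshold was not counted. DESeq2 called 0 in each treatment at an adjusted p under 0.01. The lowest adjusted p was 0.0779 in DMEM (Psme2), 0.0883 with rmGM-CSF (Tap2) and 0.0516 with 4T1 CM (Psme1). When the rmGM-CSF libraries were fitted alone, 1 member was called, B2m at -0.26 (adjusted p = 0.00484).

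The sizes of the genotype differences were bounded by their 95% confidence intervals. Over the 10 members these ran from 0.781-fold to 1.32-fold in DMEM, 0.707-fold to 1.2-fold with rmGM-CSF and 0.686-fold to 1.34-fold with 4T1 CM. With rmGM-CSF, Tap2 was at 76.0 ± 7.3 CPM (SD, n = 3 mice) in STAT5cKO and 88.3 ± 5.3 CPM (SD, n = 2 mice) in STAT5fl/fl BMDMs, a log2 difference of -0.22 ± 0.084. B2m with rmGM-CSF was at 1357 ± 24 against 1625 ± 110 CPM (-0.26 ± 0.11, adjusted p = 0.136), and Tap1 at 64.8 ± 4.6 against 75.1 ± 2.8 CPM (-0.21 ± 0.10, adjusted p = 0.165). In these 3 genes the STAT5cKO libraries lay below the STAT5fl/fl libraries. With 4T1 CM, Psmb9 was at 31.5 ± 4.6 against 39.0 ± 3.0 CPM (-0.30 ± 0.11, adjusted p = 0.082). Psme1 with 4T1 CM was at 95.3 ± 6.2 against 109.6 ± 3.2 CPM (-0.20 ± 0.067, not called). H2-K1 lay the other way, at 327 ± 9.8 against 282 ± 6.1 CPM in DMEM (0.21 ± 0.089, adjusted p = 0.171) and 402 ± 62 against 341 ± 5.6 CPM with 4T1 CM (0.24 ± 0.089, adjusted p = 0.0843). Psme2 in DMEM was also higher in STAT5cKO BMDMs, at 60.8 ± 4.4 against 52.4 ± 2.2 CPM (0.22 ± 0.070, not called).

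STAT5cKO and STAT5fl/fl libraries did not overlap for 4 members in DMEM (H2-K1, H2-D1 and Psme2 above, B2m below), 5 with rmGM-CSF (Psme2 above, B2m, Tap1, Tap2 and Psme1 below) and 4 with 4T1 CM (H2-K1 and H2-D1 above, Psmb9 and Psme1 below). The same held for 39.9%, 49.0% and 39.3% of all genes. The median log2 difference of the members was 0.0086, -0.15 and -0.084 in the 3 treatments, and that of all genes was 0.0013, 0.00048 and 0.0098.

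**Figure D3:**
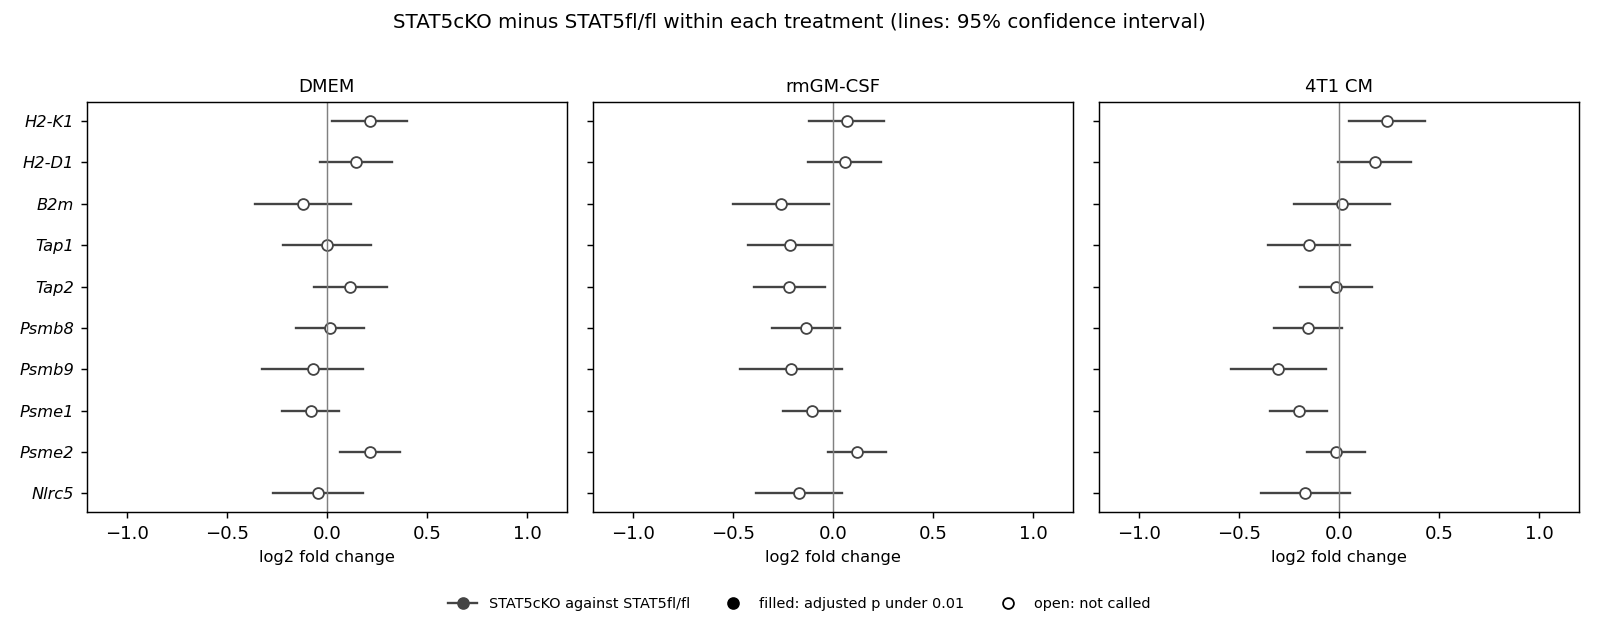
Log2 fold change of STAT5cKO against STAT5fl/fl BMDMs (x axis) for the 10 members (y axis) in DMEM, rmGM-CSF and 4T1 CM, with lines for the 95% confidence interval. All symbols are open, since none reached an adjusted p of 0.01, and the values lie between -0.30 and 0.24.

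Whether STAT5 loss altered the response to a stimulus was tested as an interaction. None of the 10 members was called for rmGM-CSF against DMEM, 4T1 CM against DMEM or 4T1 CM against rmGM-CSF by the edgeR quasi-likelihood F test, where 3.11%, 1.27% and 1.47% of all genes were called, and DESeq2 also called 0 in each. The interactions were higher for 0.884%, 0.73% and 1.32% of all genes and lower for 2.22%, 0.538% and 0.146%. At an unadjusted p under 0.05 there were 1, 1 and 0 members, and the share of all genes at that looser threshold was not counted. The rmGM-CSF response was lower in STAT5cKO than in STAT5fl/fl BMDMs by between 0.024 and 0.34 on the log2 scale in all 10 members, with the largest value for Tap2 (-0.34 ± 0.12, 95% confidence interval -0.59 to -0.083, adjusted p = 0.151). The members share libraries, so these are not 10 separate observations. The median was -0.14 for the members and 0.00053 for all genes. Values also lay below 0 for 14 of 17 standard proteasome genes and 10 of 14 loading and nonclassical class I genes. In the lists of regulators and interferon genes described below this held for 7 of 15 and 6 of 8. For Nlrc5 the interval was -0.43 to 0.19, beside a response of 1.19 in STAT5fl/fl BMDMs, and for Psme2 it was -0.30 to 0.11 beside 0.72. The STAT5 target Cish was at 150 and 146 CPM with rmGM-CSF in STAT5fl/fl and at 1.98 to 2.63 CPM in STAT5cKO libraries.

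The rest of the loading pathway was followed in 14 further genes of peptide loading and nonclassical class I. Between genotypes 2 were higher and 0 lower in DMEM, 2 higher and 2 lower with rmGM-CSF, and 1 higher and 0 lower with 4T1 CM. Over all genes the shares were 0.938% higher and 1.55% lower, 3.57% and 6.24%, and 4.13% and 3.57%. Calr (calreticulin), the chaperone that holds the empty heavy chain, was at 842 and 882 CPM in STAT5fl/fl and 1161, 1178 and 1224 CPM in STAT5cKO libraries in DMEM. Its log2 difference was 0.46 ± 0.062 in DMEM (1.38-fold, adjusted p = 0.000313), 0.42 ± 0.062 with rmGM-CSF (adjusted p = 0.000114) and 0.39 ± 0.061 with 4T1 CM (adjusted p = 0.000344). The STAT5cKO libraries were above the STAT5fl/fl libraries in each treatment. Pdia3 (ERp57), the disulfide isomerase of the loading complex, was higher in DMEM (0.32 ± 0.066, adjusted p = 0.0067) and with rmGM-CSF (0.28 ± 0.066, adjusted p = 0.00701), and its value with 4T1 CM was 0.26 ± 0.066 (adjusted p = 0.0111). Both chaperones also serve glycoprotein folding in general. Without STAT5fl/fl mouse 112 or 113, Calr in DMEM was at 0.43 and 0.50 and no longer called (adjusted p = 0.0167 and 0.0114). Calr with 4T1 CM lost its call without mouse 113 (0.38, adjusted p = 0.0153), and the Pdia3 call in DMEM was lost without any 1 of the 5 mice (adjusted p = 0.0125 to 0.101) and that with rmGM-CSF without mouse 112, 113, 114 or 115 (adjusted p = 0.0241 to 0.126).

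The nonclassical genes H2-Q4 and H2-Q6 were lower in STAT5cKO BMDMs with rmGM-CSF. H2-Q4 was at 128 ± 18 CPM (SD, n = 2 mice) in STAT5fl/fl and 102 ± 4.0 CPM (SD, n = 3 mice) in STAT5cKO BMDMs, a log2 difference of -0.33 ± 0.078 (adjusted p = 0.0071). H2-Q6 was at 16.4 ± 1.6 and 10.5 ± 0.94 CPM (-0.63 ± 0.15, adjusted p = 0.00589). Genes of this family resemble each other in sequence and differ between mouse strains, so their assignment is uncertain. The share of words that H2-Q4 and H2-Q6 have in common with other genes was not counted. H2-Q4 was not called without mouse 112, 114, 115 or 116 (adjusted p = 0.0181 to 0.173), nor H2-Q6 without mouse 112, 113 or 116 (adjusted p = 0.0253 to 0.089). Without mouse 112 the H2-Q4 difference was -0.17.

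Of 17 genes of the standard proteasome, 1 was called between the genotypes, Psmb6, the constitutive subunit that Psmb9 replaces. This was with rmGM-CSF, where 6.24% of all genes were lower in STAT5cKO BMDMs. In DMEM and 4T1 CM 0 of 17 were called, beside 2.49% and 7.7% of all genes. With rmGM-CSF Psmb6 stood at 216 ± 3.8 CPM (SD, n = 2 mice) in STAT5fl/fl and 175 ± 6.5 CPM (SD, n = 3 mice) in STAT5cKO BMDMs, a log2 difference of -0.30 ± 0.062 (adjusted p = 0.00224), which was not called without mouse 112, 113, 114 or 115 (adjusted p = 0.0105 to 0.029). With rmGM-CSF against DMEM, 8 of 17 were higher in STAT5fl/fl and 4 of 17 in STAT5cKO BMDMs, beside 15.9% and 13.3% of all genes. With 4T1 CM against DMEM, 10 and 5 of 17 were higher, beside 19.2% and 19.3% of all genes, and 0 were lower in any of these.

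Among 15 transcriptional regulators of class I genes, 3 were lower in STAT5cKO BMDMs with rmGM-CSF and 1 with 4T1 CM, with 0 higher. Over all genes 6.24% and 3.57% were lower. Irf8, a myeloid interferon regulatory factor, was at 253 and 260 CPM in STAT5fl/fl and 148, 141 and 163 CPM in STAT5cKO libraries with rmGM-CSF (-0.76 ± 0.071, adjusted p = 5.30e-07). With 4T1 CM it was at 357 and 416 CPM in STAT5fl/fl and 270, 272 and 291 CPM in STAT5cKO libraries (-0.48 ± 0.070, adjusted p = 0.000163), a call lost without mouse 113 (-0.37, adjusted p = 0.0179). Irf1, an interferon-induced activator of Tap1 and Psmb9, rose with rmGM-CSF in both genotypes and fell with 4T1 CM in both. It was at 86.5 CPM in both STAT5fl/fl libraries in DMEM, 342 and 337 CPM with rmGM-CSF, and 44.5 and 47.5 CPM with 4T1 CM. In STAT5cKO libraries it was at 73.5 to 79.8, 229 to 257 and 37.6 to 47.4 CPM. The genotype difference of Irf1 was -0.51 ± 0.078 with rmGM-CSF (adjusted p = 0.000177) and -0.072 ± 0.088 with 4T1 CM (adjusted p = 0.642). Irf1 was lower with 4T1 CM than in DMEM in each genotype, where Tap1 and Psmb9 were higher, and a link between these genes was not tested. Nfkb1 was lower in STAT5cKO BMDMs with rmGM-CSF (-0.25 ± 0.064, adjusted p = 0.00989), a call lost with TMM normalization (adjusted p = 0.0109) and without any 1 of the 5 mice (adjusted p = 0.0113 to 0.133).

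Interferon ligands were near the limit of detection. Ifng had 0 counts in all 15 libraries, which allows up to 0.187 CPM in the smallest library at 3 counts, for counting error only, and Ifnb1 had at most 5 counts. Of the 10 genes in this list, 8 were tested, and with rmGM-CSF 3 were lower in STAT5cKO BMDMs, beside 6.24% of all genes. These were the interferon receptor chain Ifnar1 (-0.35), the kinase Jak2 (-0.31) and Socs1 (-1.67 ± 0.22, adjusted p = 3.15e-05), a feedback inhibitor of JAK signaling. Jak2 was not called without mouse 112, 113, 114 or 116 (adjusted p = 0.0258 to 0.139), nor Ifnar1 without mouse 113 (adjusted p = 0.0179). Socs1 was at 6.10 and 4.77 CPM in STAT5fl/fl and 1.62, 1.52 and 2.04 CPM in STAT5cKO libraries with rmGM-CSF. In 4T1 CM Socs1 stood at 6.61 and 7.02 CPM in STAT5fl/fl and 3.26, 4.39 and 4.16 CPM in STAT5cKO libraries (-0.79 ± 0.17, adjusted p = 0.00422), a call that was lost with DESeq2 (adjusted p = 0.0128) and without mouse 112, 113 or 114 (adjusted p = 0.0277 to 0.0627).

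**Figure D4:**
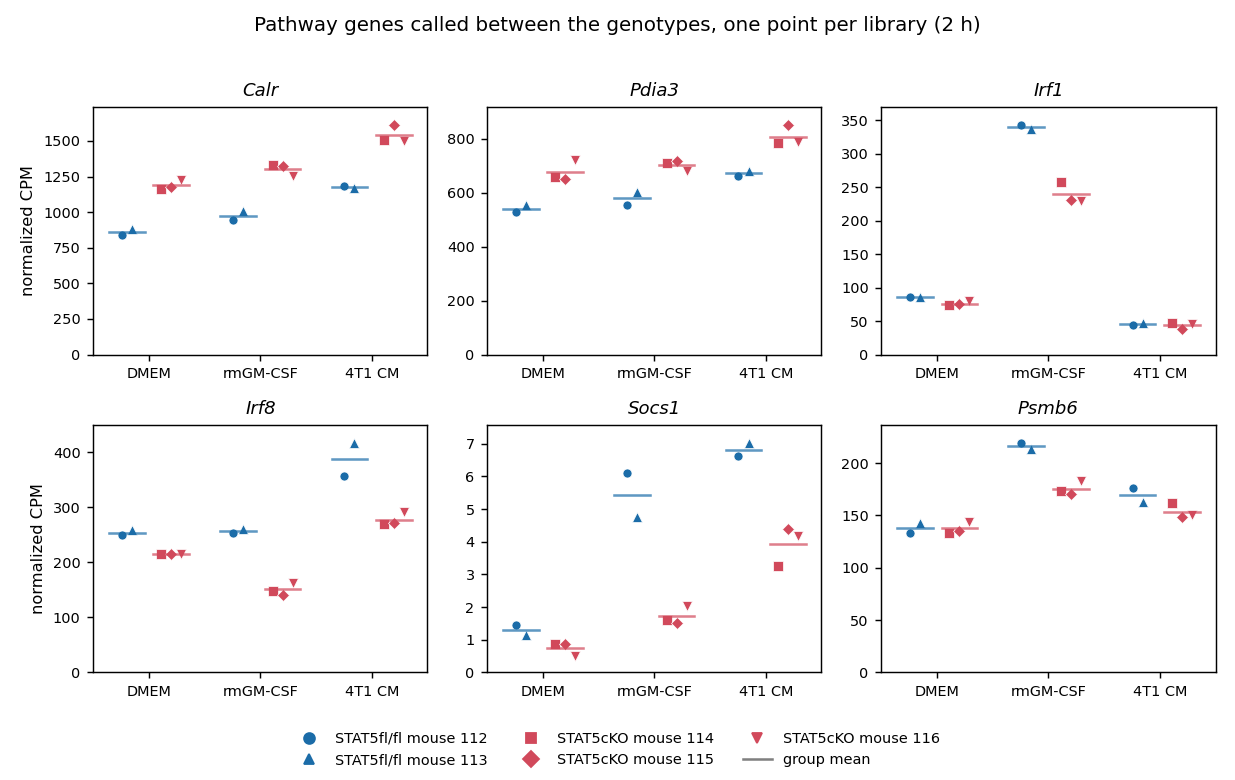
Normalized CPM (y axis, linear from 0) of 6 pathway genes in every library, by treatment (x axis), with colors for genotype, a symbol for each mouse and a line at the group mean. Calr and Pdia3 lie higher in STAT5cKO libraries in each treatment, and Irf8 and Socs1 lie lower, with Irf8 at 141 to 163 CPM against 253 and 260 CPM with rmGM-CSF.

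The profiles of the members were alike to differing degrees. Over the 15 libraries all 45 pairs of members had a Pearson r above 0, from 0.021 to 0.93 (median 0.58), with the highest for H2-K1 and H2-D1. After the group means were removed 31 of 45 were above 0 (median 0.31). The tested genes most like the mean profile of the members were Ptpn7 (r = 0.96), Msr1 (r = 0.96) and Il1b (r = 0.96). For single members they were Bcl2 for Tap1 (r = 0.98), Prdm1 for Nlrc5 (r = 0.97), Mapkapk2 for Psme2 (r = 0.97), Fcgr4 for Psmb9 (r = 0.94) and Tapbp for H2-K1 (r = 0.95). These libraries share mice, treatments and normalization, so the values describe likeness alone and were not tested.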

How the data were processed

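Stranded TruSeq libraries were made from total RNA. The authors trimmed reads with Trimmomatic 0.33, aligned them to GRCm38 with HISAT2 2.1.0 and deposited raw counts per gene made with featureCounts 1.6.2, which per the file headers counted strand-specific pairs with both ends mapped and a mapping quality of at least 10. A STAT5fl/fl replicate was removed by the authors after quality control, and libraries with another conditioned medium named in the file header were not analysed here.

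Of 55385 genes, 55144 had a symbol. A minimum of CPM 1, exceeded by 2 or more libraries, left 13005 genes, to which edgeR 4.0.16 was applied under R 4.3.3 (RLE factors 0.945 to 1.08, a model of 6 groups over 15 libraries, quasi-likelihood F test). Within each of 12 comparisons, Benjamini-Hochberg adjustment ran over all genes tested and calls were made under 0.01. Filter, normalization and threshold follow the methods of the study. The biological coefficient of variation was 0.0787. A CPM of 1 was 16.0 to 22.9 counts, and intervals cover the spread between mice and counting error only. Alternatives were TMM, no filter, DESeq2 1.42.0, the likelihood ratio test, a threshold of 0.05, limma 3.58.1 voom with the mouse as a random effect, the mouse as a block, only the groups compared, each mouse left out, and, chosen after seeing the data, the legacy form of the test. The model was tested on simulated data.

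Mouse numbers in the library names were read as the mouse. Libraries of one mouse deviated together from their group means (mean r 0.157 over 9 pairs in STAT5cKO, from 0.055 to 0.214, and 0.142 in STAT5fl/fl, where 2 mice mirror each other). A block cannot be fitted between genotypes, which have different mice. No 2 libraries of a group agreed within sampling noise. Named genes were all 10 members and, of 4 pathway lists, up to 6 genes each called between genotypes or in an interaction. The members and lists were chosen with earlier results of these data known.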

Additional observations from a re-analysis of the deposited data

Results flagged for a closer look

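The response of Irf8 to rmGM-CSF differed between the genotypes, by -0.53 on the log2 scale (edgeR quasi-likelihood F test of the interaction, adjusted p = 0.00337): it was 0.011 in STAT5fl/fl and -0.51 in STAT5cKO BMDMs. It was not called without mouse 112, 113, 114 or 115 (adjusted p = 0.0231 to 0.0346). The STAT5 target Cish differed between the genotypes in its response to rmGM-CSF (-6.20), to 4T1 CM (-4.34) and between the stimuli (1.86), with adjusted p of 9.53e-06, 0.000641 and 1.83e-05. The call for 4T1 CM was lost without mouse 113 (-3.60, adjusted p = 0.0119). Cish had 2 to 6 counts per library in STAT5fl/fl BMDMs in DMEM, so the differences in response against DMEM depend on low counts. No member of the class I set was called for a difference between the genotypes in its response by this test. The lowest adjusted p of a member for rmGM-CSF was that of Tap2. With the mouse as a block the same test gave -0.34 for Tap2 (adjusted p = 0.0496), which was not called under 0.01.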

How the results depend on the processing

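The counts of members called kept within 1.5 times the reported count under TMM, the likelihood ratio test, voom with the mouse as a random effect, the legacy test and the mouse block in all comparisons where each could be fitted. With the mouse as a block, 5 members were called for rmGM-CSF against DMEM in STAT5fl/fl and 5 in STAT5cKO, 6 and 7 for 4T1 CM against DMEM, 3 and 4 between the stimuli, and 0 in each interaction. For 4T1 CM against rmGM-CSF in STAT5cKO the count was 6 without the low-count filter, 5 with DESeq2 and 6 at an adjusted p under 0.05. With only the groups compared, it was 3 for 4T1 CM against DMEM in STAT5cKO and 1 for the genotypes with rmGM-CSF.

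Leaving out each mouse in turn gave 3 to 6 members for rmGM-CSF against DMEM in STAT5fl/fl and 3 to 4 in STAT5cKO, 1 to 7 and 2 to 7 for 4T1 CM against DMEM, 1 to 3 and 2 to 3 between the stimuli, and 0 to 0 for the genotypes and interactions. Leaving out a STAT5fl/fl mouse leaves 1 library per group, assumed to vary like the other groups. Over all members, comparisons and alternatives, a call was lost 43 times and gained 31 times, and no called value changed sign. The legacy test was chosen after seeing the data.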
